A study of Homo sapiens with 8 samples.

Results

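Cells that the study names oligodendrocyte precursor cells (OPCs) were compared, gene by gene, after 2 days on the synthetic substrate VNP2 or on Matrigel. The comparison used 5 of the 8 RNA-seq libraries analysed here. The libraries were chosen by their labelled substrate alone: VNP2 replicates 1, 2 and 3 against Matrigel replicates 2 and 3. All the cells derived from the human embryonic stem cell line H9 and had been differentiated to OPCs on Matrigel and then seeded at 1 density in OPC medium. Polyadenylated RNA was sequenced in stranded paired-end libraries. No cell in either group carried the SOX10 transgene that the study used elsewhere to drive oligodendrocyte formation. Matrigel is a basement membrane extract of a mouse tumour, rich in laminin and collagen IV, and it contains growth factors. VNP2 is a designed variant of the RGD peptide of human vitronectin, made as a fusion with a mussel adhesive protein and immobilized on the plate. The groups therefore differ in ligand, carrier and surface together, and these cannot be told apart. The remaining 3 libraries, from cells on full-length vitronectin (VN), entered the fit only to estimate the spread and to serve as a reference where stated. The labels do not say whether replicates were separate cultures, so the p-values measure the spread between these libraries, which may be technical.

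The 5 libraries held 38761915 to 39429453 estimated counts each. Mitochondrially encoded genes took 3.36 to 3.89% of the counts and ribosomal protein genes 3.76 to 3.95%, with no gap between the substrates. VN replicate 1 stood apart from the other VN libraries. Of the OPC and oligodendrocyte markers, OLIG1, OLIG2, NKX2-2 and PDGFRA were expressed in every library, whereas SOX10 summed to 20 estimated counts across the 8 libraries, MAG to 35 and MOG to 26, below the level needed for a test. Mean levels on Matrigel and VNP2 were 48.2 and 66.9 TPM (a level per transcript length) for OLIG1. They were 3.76 and 4.94 TPM for PDGFRA, and 0.642 and 1.06 TPM for CSPG4. Genes of neurons and of neural progenitors were expressed as well, with TUBB3 at 548 and 569 TPM and SOX2 at 349 and 382 TPM. The name OPC is the study's, and the mix of cell types in the libraries was not tested. In bulk RNA, fewer cells of a type and less RNA per cell cannot be told apart, and this holds for every result given here.

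Cells read their substrate through integrins, which cluster in focal adhesions and couple the matrix to contractile actin. Tension on this link frees the co-activators YAP and TAZ to enter the nucleus with TEAD factors, and actin assembly frees MRTF to act with the serum response factor SRF, so that cytoskeletal and matricellular genes follow the mechanical state of the cell. OPCs arise from OLIG2-positive progenitors of the ventral neural tube, which also give rise to motor neurons, and FGF, Notch and sonic hedgehog signals bear on which of these fates is taken.

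Of 18201 genes tested, 3017 differed between VNP2 and Matrigel (16.6%) at an adjusted p under 0.05 in edgeR's quasi-likelihood test, with 1356 of them higher on VNP2 (7.45%) and 1661 lower (9.13%). Most changes were small, since 450 of the higher and 535 of the lower genes changed by at least 1.5-fold. The large changes were mainly falls. At least 2-fold, 146 genes were higher and 276 lower, and at least 3-fold, 42 were higher and 141 lower. The VNP2 and Matrigel libraries were fully separated in 8746 tested genes (48.1%) and in 3016 of the called genes. The exception among the called genes was ZNF426-DT, named after its values were seen, which was at 0 in both Matrigel libraries and in VNP2 replicate 1. The median log2 fold change of all tested genes was 0.003, so the scaling left no overall shift. Precision depended on the level: the median SE on the log2 scale was 0.36 for genes with a mean under 100 normalized counts, 0.10 between 100 and 1000, and 0.06 between 1000 and 10000, and 6.58%, 19.0% and 20.8% of the genes in these classes were called. Among the 635 genes over 10000 normalized counts, 64 were higher and 138 lower. Against VN, 942 genes differed on VNP2 (5.18%). Of the 1356 genes higher than on Matrigel, 337 were also higher than on VN and 6 were lower, and of the 1661 lower genes 212 were also lower than on VN and 40 were higher.

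**Figure D1:**
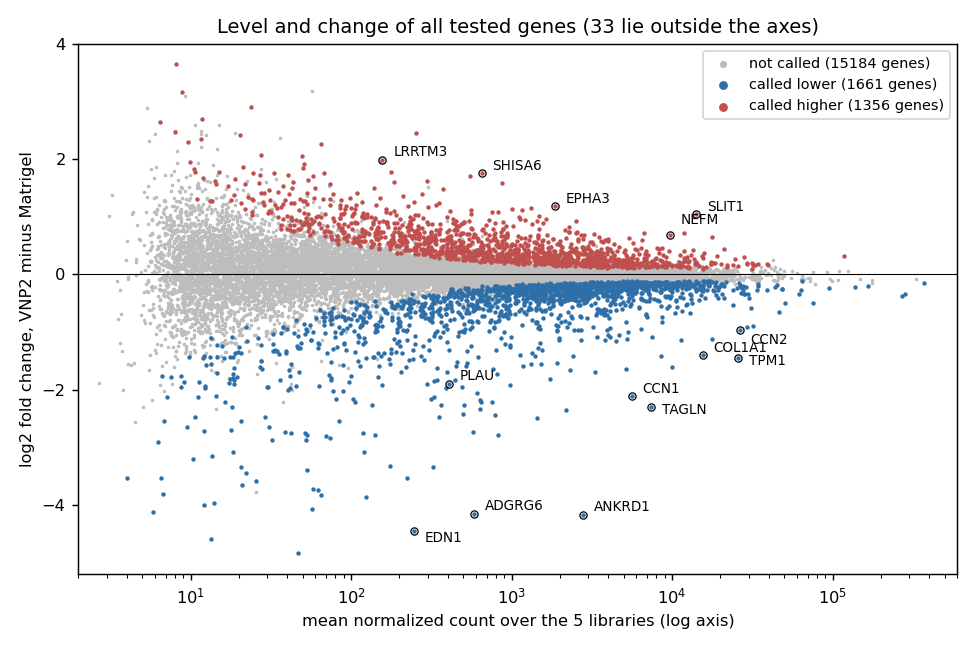
Each point is 1 of 18201 tested genes, with its mean normalized count over the 5 libraries on a log axis and its log2 fold change (VNP2 minus Matrigel) on the vertical axis. The 1356 genes called higher and the 1661 called lower are coloured, and the circled genes are named. The circled genes run from −4.45 for EDN1 to 1.99 for LRRTM3, and 33 genes lie outside the axes.

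Among the 42 gene lists, the one of focal adhesions and contractile actin had the largest share of called members. The lists were chosen with earlier results of these data known, so their ranking is partly built in. Each list count from here on stands beside all tested genes, of which 7.45% were higher and 9.13% lower. Of 43 tested members, 37 were lower on VNP2 and none was higher, with a median log2 fold change of −0.50. The fall was not particular to VNP2: on VN against the same Matrigel libraries, 36 members were lower and none higher, with a median of −0.50. The summed level of the list was 22506 and 22314 TPM in the Matrigel libraries and 17686, 16645 and 17167 TPM in the VNP2 libraries. Left out in turn, the Matrigel libraries gave 35 and 36 lower members. TAGLN (ENSG00000149591, chr11:117199321-117204782; GRCh38, as are all positions), which encodes the actin-bundling protein transgelin, had 13848 and 14516 normalized counts on Matrigel and 3363, 2513 and 2813 on VNP2. Its log2 fold change was −2.29 (SE 0.09, edgeR adjusted p = 1.30e-07) and the VNP2 level was 0.204 of that on Matrigel. TPM1 (ENSG00000140416, chr15:63042632-63071915), a tropomyosin that lines actin filaments, had 41682 and 41725 on Matrigel and 15893, 15108 and 14894 on VNP2, a log2 fold change of −1.45 (SE 0.04, edgeR adjusted p = 8.97e-09). MYL9, a regulatory light chain of myosin II, had 4047 and 3837 on Matrigel and 1360, 1221 and 1176 on VNP2, a change of −1.65 (SE 0.07, edgeR adjusted p = 1.37e-07). Its partner MYH9, the heavy chain of non-muscle myosin IIA, fell as well, from 40614 and 41296 to 22751, 21606 and 20956, a change of −0.91 (SE 0.04, edgeR adjusted p = 1.91e-07). For all 4 genes every VNP2 library lay well below both Matrigel libraries.

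CAVIN1, a coat protein of caveolae, fell furthest of the list, from 1602 and 1761 normalized counts on Matrigel to 280, 236 and 215 on VNP2, a log2 fold change of −2.79 (SE 0.10, edgeR adjusted p = 6.18e-08). The cytoplasmic actins moved by less but carried more RNA. ACTB had 329528 and 318363 normalized counts on Matrigel and 261839, 249375 and 255994 on VNP2, a change of −0.34 (SE 0.04, edgeR adjusted p = 1.64e-04), and ACTG1 had 315017 and 312532 and 251195, 229012 and 242507, a change of −0.38 (SE 0.05, edgeR adjusted p = 6.02e-04). In TPM, a level per transcript length, ACTB went from 7796 to 6447 and ACTG1 from 7932 to 6379. MYL6, the essential light chain of myosin, and TMSB10, a thymosin that binds actin monomers, were also among the 12 genes with the largest change in TPM, with log2 fold changes of −0.40 (SE 0.05, edgeR adjusted p = 3.26e-04) and −0.27 (SE 0.04, edgeR adjusted p = 0.0012). ACTA2, the smooth muscle actin, fell by 0.83 on the log2 scale, from 805 and 724 to 443, 430 and 414 normalized counts, and since actin genes are near-identical in sequence, the split of reads among them is less certain than their sum. All 12 genes with the largest TPM change were lower on VNP2.

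Genes induced by YAP and by SRF fell with them: 19 of 26 tested members were lower and 2 higher, with a median of −0.51. On VN against Matrigel, 18 were lower and 1 higher, with a median of −0.49. ANKRD1 (ENSG00000148677, chr10:90912096-90921276), a nuclear ankyrin repeat protein and a standard readout of YAP activity, had 6045 and 6852 normalized counts on Matrigel and 430, 341 and 305 on VNP2, a log2 fold change of −4.17 (SE 0.11, edgeR adjusted p = 1.19e-08). This was a 18-fold fall. CCN1, a secreted matricellular protein, had 10100 and 10709 on Matrigel and 2456, 2423 and 2320 on VNP2, a change of −2.12 (SE 0.05, edgeR adjusted p = 7.89e-09). CCN2 (ENSG00000118523, chr6:131948176-131951373), its relative once called CTGF, had 36744 and 37629 and 20171, 18904 and 18324, a change of −0.96 (SE 0.04, edgeR adjusted p = 1.76e-07). The LIM protein AJUBA, with −1.05, and CRIM1, a transmembrane regulator of BMP supply, with −1.10, were lower too. The members called higher were the co-activator YAP1 itself and its partner TEAD2, with log2 fold changes of 0.17 and 0.19, and neither call held without Matrigel replicate 3. The amount of YAP1 RNA thus did not follow that of its target genes.

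The promoters of 3 of these genes are shown because their products fell together and because the sequence holds the motifs after which the list is named. RefSeq promoters (GRCh38.p14; 250 bases before to 50 after the start) were matched by symbol for 47 of the called-lower genes of the focal adhesion and the YAP and SRF lists, and the 250 bases before the start are printed 5′ to 3′ on the gene's strand. Capitals mark the TEAD motif GGAATG, searched on both strands, in ANKRD1 (chr10:90921088-90921337, minus strand) and CCN2 (chr6:131951373-131951622, minus strand), and the SRF motif, the CArG box, in ACTG1 (chr17:81512800-81513049, minus strand).
ANKRD1: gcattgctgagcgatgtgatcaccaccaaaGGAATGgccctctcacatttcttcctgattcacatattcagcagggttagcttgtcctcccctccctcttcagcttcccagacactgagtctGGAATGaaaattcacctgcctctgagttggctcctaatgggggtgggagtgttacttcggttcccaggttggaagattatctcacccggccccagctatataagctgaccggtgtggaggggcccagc
CCN2: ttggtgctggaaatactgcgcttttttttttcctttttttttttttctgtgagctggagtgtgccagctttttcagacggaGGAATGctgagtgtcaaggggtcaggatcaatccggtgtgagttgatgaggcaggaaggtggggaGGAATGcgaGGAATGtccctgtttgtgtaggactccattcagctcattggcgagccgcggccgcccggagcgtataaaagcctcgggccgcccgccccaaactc
ACTG1: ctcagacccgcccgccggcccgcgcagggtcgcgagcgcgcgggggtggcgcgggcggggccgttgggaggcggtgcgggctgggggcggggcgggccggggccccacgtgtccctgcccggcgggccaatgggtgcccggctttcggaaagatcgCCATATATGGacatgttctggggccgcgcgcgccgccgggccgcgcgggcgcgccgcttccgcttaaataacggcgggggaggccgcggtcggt
The matches begin 220 and 128 bases before the start in ANKRD1, 169, 104 and 95 bases before it in CCN2, and 94 bases before it in ACTG1. The TEAD motif was in 12 of the 47 windows (25.5%), against 11% of the windows of 12719 tested genes and 14% of all 27305 promoters. The CArG box, a motif added after the gene lists had been read, was in 6 of the 47 (12.8%), against 1.09% of those of tested genes and 1.29% of all. Other motifs were searched too. The ETS motif was in 12.8% of the 47 against 27.2% of tested genes, the E-box in 12.8% against 17.2%, and the CRE in 2.13% against 3.18%. The hypoxia response element was in 25.5% against 25.9%, and the AP-1 motif in 6.38% against 4.51%. Among all called-lower genes with a promoter, 1.83% had a CArG box and 13.4% a TEAD motif, and among all called-higher genes 0.884% and 10.3%. The lists were compiled from genes known to respond to these factors, so a higher share is partly built in. A match is a description of the letters and not a test of binding.

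**Figure D2:**
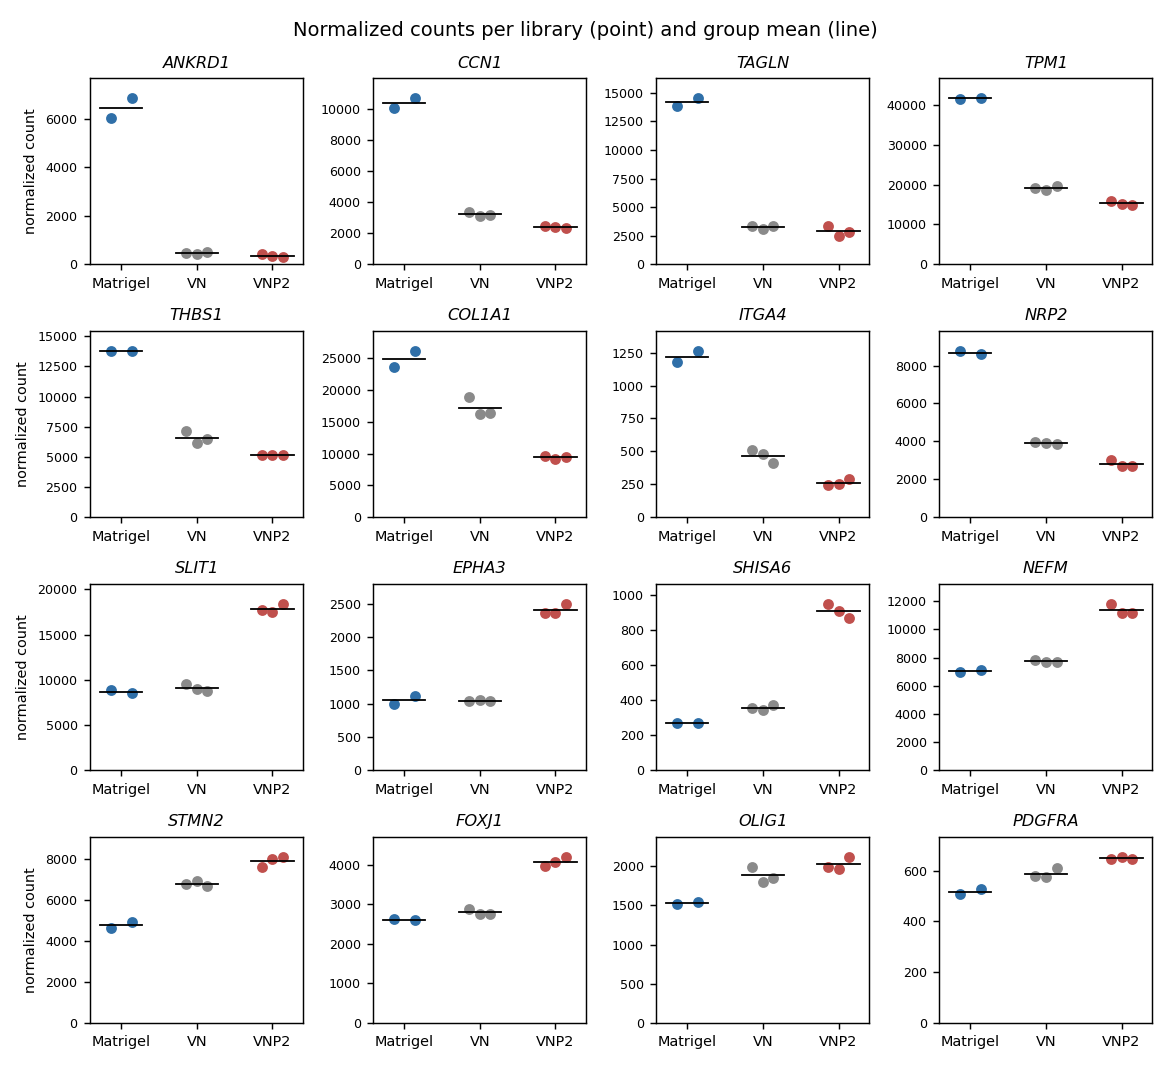
Normalized counts of 16 genes in every library (points) with the group mean (line), for Matrigel (2 libraries), VN (3) and VNP2 (3), on linear axes from 0. ANKRD1, CCN1, TAGLN, TPM1, THBS1, COL1A1, ITGA4 and NRP2 are lower on VNP2 than on Matrigel in every library, and SLIT1, EPHA3, SHISA6, NEFM, STMN2, FOXJ1, OLIG1 and PDGFRA are higher. VN lies near VNP2 for ANKRD1 and TAGLN and near Matrigel for SLIT1 and EPHA3.

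Immediate early genes, which cells switch on within minutes of growth factor or mechanical stimulation, were lower in part: 11 of 22 tested members fell and 1 rose, with a median log2 fold change of −0.31. Among the falls were members of the FOS family, which form the AP-1 factor with JUN proteins. FOSL2 had 1143 and 1191 normalized counts on Matrigel and 206, 134 and 186 on VNP2, a change of −2.73 (SE 0.18, edgeR adjusted p = 3.42e-06). FOSB had 162 and 174 and 29.6, 25.5 and 30.7, a change of −2.55 (SE 0.20, edgeR adjusted p = 1.37e-05), and FOSL1 had 330 and 370 and 132, 103 and 90.4, a change of −1.69 (SE 0.16, edgeR adjusted p = 5.42e-05). ATF3, a stress-induced partner of these factors, fell to 0.426 of its Matrigel level. JUN itself was not called, with a log2 fold change of −0.09.

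Among genes with a mean of at least 100 normalized counts, EDN1 fell furthest. EDN1 (ENSG00000078401, chr6:12290363-12297194), the precursor of the vasoconstrictor endothelin-1, had 542 and 609 normalized counts on Matrigel and 35.7, 20 and 23 on VNP2, a log2 fold change of −4.45 (SE 0.19, edgeR adjusted p = 2.10e-07) and a 21.8-fold fall. IL11, a cytokine of the IL6 family, had 653 and 755 and 86.7, 70.8 and 49.5, a change of −3.35 (SE 0.23, edgeR adjusted p = 3.95e-06). NPPB, the precursor of B-type natriuretic peptide, fell from 256 and 256 to 39.8, 27.6 and 22.7, a change of −3.09 (SE 0.20, edgeR adjusted p = 3.61e-06). CRHBP, which binds corticotropin-releasing hormone, had a change of −3.33 (SE 0.22, edgeR adjusted p = 3.68e-06). All 4 messages lay above 200 normalized counts in every Matrigel library and under 100 in every VNP2 library.

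ADGRG6, an adhesion G protein-coupled receptor that Schwann cells need for myelination, had 1280 and 1420 normalized counts on Matrigel and 71.2, 67.7 and 90.7 on VNP2, a log2 fold change of −4.15 (SE 0.12, edgeR adjusted p = 1.68e-08). UBD, a ubiquitin-like protein induced by inflammatory cytokines, fell from 259 and 303 to 23.7, 17.1 and 16.9 (−3.86), and ANXA3, a calcium-dependent membrane-binding annexin, from 462 and 524 to 47.9, 32.3 and 47.3 (−3.53). LAYN, a hyaluronan receptor, and MAMDC2 had log2 fold changes of −2.79 and −2.75, and ANKRD33B had −2.44. None of these calls was lost in any alternative fit.

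Integrin genes, the receptors for both substrates, fell in part: 7 of 19 tested subunits were lower and 1 was higher, with a median log2 fold change of −0.28. ITGA4, the alpha subunit that binds fibronectin and VCAM1, had 1176 and 1262 normalized counts on Matrigel and 246, 254 and 287 on VNP2, a change of −2.22 (SE 0.10, edgeR adjusted p = 2.35e-07). ITGA3, a laminin receptor subunit, had 2260 and 2587 and 1013, 927 and 987, a change of −1.31 (SE 0.09, edgeR adjusted p = 3.61e-06). ITGA5, the fibronectin receptor subunit, fell to 0.567 of its Matrigel level, and ITGB1, the common beta partner, to 0.789. The subunit that rose was ITGA8, which pairs with ITGB1 to bind RGD ligands. It had 60.3 and 48.3 normalized counts on Matrigel and 143, 181 and 110 on VNP2, a change of 1.41 (SE 0.23, edgeR adjusted p = 0.00224). Its level was 1.15 TPM on VNP2, against 2.53 TPM for ITGA4 and 369 TPM for ITGB1, and ITGB3 had 1.03 TPM. ITGAV, the alpha subunit of the vitronectin receptors, fell with a log2 fold change of −0.28, while its partners ITGB5 and ITGB3 had −0.09 and −0.58 and were not called.

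RNA of matrix genes changed in both directions. In the list of fibrillar and beaded collagens with their processing enzymes, 13 of 32 tested members fell and 4 rose, with a median of −0.19. COL1A1, the alpha 1 chain of collagen I, had 23594 and 26106 normalized counts on Matrigel and 9662, 9079 and 9406 on VNP2, a log2 fold change of −1.41 (SE 0.07, edgeR adjusted p = 2.96e-07). Its partner chain COL1A2 was among the members that rose, with 0.29, as did COL3A1 with 0.28. COL11A1 and COL12A1, minor fibril-associated collagens, had log2 fold changes of −1.09 and −0.97, COL5A1 had −0.82, and the crosslinking enzyme LOXL2 had −1.13. The 2 chains of collagen I thus moved in opposite directions.

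Basement membrane genes split: 9 of 27 tested members were lower and 6 higher. HSPG2, the core protein of perlecan, had 5067 and 4785 normalized counts on Matrigel and 3010, 2960 and 3120 on VNP2, a log2 fold change of −0.70 (SE 0.05, edgeR adjusted p = 5.24e-06). NID1, nidogen 1, fell to 0.798 of its Matrigel level. The laminin chains LAMA4 and LAMA2 went the other way. LAMA4 had 1113 and 955 on Matrigel and 1897, 1903 and 1948 on VNP2, a change of 0.89 (SE 0.10, edgeR adjusted p = 1.18e-04), and LAMA2 had 426 and 425 and 716, 664 and 633, a change of 0.66 (SE 0.08, edgeR adjusted p = 2.23e-04). The matrix protein FREM2 rose slightly, with 0.28.

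Among proteoglycans, tenascins and matricellular proteins, 11 of 44 tested members fell and 9 rose. The falls held the abundant members. THBS1, thrombospondin 1, had 13746 and 13765 normalized counts on Matrigel and 5173, 5157 and 5126 on VNP2, a log2 fold change of −1.42 (SE 0.05, edgeR adjusted p = 6.33e-08). GPC4, a glypican that carries heparan sulfate, had 26346 and 26547 and 12022, 12557 and 11763, a change of −1.13 (SE 0.04, edgeR adjusted p = 4.16e-08). TNC, tenascin C, went from 43305 and 44574 to 24441, 22584 and 23671, a change of −0.90 (SE 0.04, edgeR adjusted p = 4.48e-07), and SPARC, a collagen-binding matricellular protein, from 1891 to 1406 TPM. In the plasminogen system, which cuts matrix at the cell surface, PLAU, the urokinase, had 709 and 742 normalized counts on Matrigel and 243, 184 and 157 on VNP2, a change of −1.90 (SE 0.14, edgeR adjusted p = 8.51e-06). Of 23 tested members of the protease list 9 fell, with MMP2, TIMP3 and ADAM19 at −0.42, −0.64 and −0.73, and 5 rose. Without Matrigel replicate 3, 5 protease members fell and 2 rose, and 4 of the proteoglycan list rose. Without replicate 2, 3 protease members rose.

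Growth factors and their receptors moved in both directions, with 16 of 42 tested members lower and 11 higher. HBEGF, a ligand of the EGF receptor, had 681 and 741 normalized counts on Matrigel and 184, 169 and 191 on VNP2, a log2 fold change of −1.97 (SE 0.09, edgeR adjusted p = 2.51e-07). The insulin-like growth factor binding proteins IGFBP3 and IGFBP5 had −1.69 (SE 0.07, edgeR adjusted p = 1.07e-07) and −0.65 (SE 0.03, edgeR adjusted p = 2.51e-07), and the receptor IGF1R had −0.40. FGFR2, an FGF receptor, rose from 1547 and 1471 to 2663, 2464 and 2568, a change of 0.77 (SE 0.05, edgeR adjusted p = 4.69e-06). In the BMP and TGF-beta pathway, 15 of 40 tested members were lower and 9 higher. The ligands TGFB2 and BMP4 had log2 fold changes of −1.27 (SE 0.08, edgeR adjusted p = 1.68e-06) and −1.48 (SE 0.13, edgeR adjusted p = 2.21e-05), and the TGF-beta induced matrix protein TGFBI had −0.54, whereas the ligand BMP6 rose from 710 and 688 to 1368, 1394 and 1417, a change of 0.99 (SE 0.06, edgeR adjusted p = 1.08e-06). Of the ID genes, direct targets of BMP signalling, ID1, ID2 and ID3 were called higher, with 0.68, 0.51 and 0.57, and ID4 was not called, with −0.08. They were named after their values were seen. Without Matrigel replicate 2 there were 5 higher members in the growth factor list, and without replicate 3 there were 7.

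FGF signalling through ERK induces its own inhibitors. Of 24 tested genes in this feedback list 11 were higher on VNP2 and 2 were lower, with a median of 0.19. SPRY1, a Sprouty inhibitor of receptor tyrosine kinase signalling, had 2456 and 2253 normalized counts on Matrigel and 3766, 3989 and 3803 on VNP2, a log2 fold change of 0.71 (SE 0.06, edgeR adjusted p = 1.27e-05). ETV5 and ETV1, ETS factors induced by FGF, had 2127 and 2117 and 2432 and 2331 on Matrigel and 3254, 3304 and 3196 and 3190, 3394 and 3535 on VNP2, with changes of 0.62 (SE 0.05, edgeR adjusted p = 1.32e-05) and 0.50 (SE 0.05, edgeR adjusted p = 6.56e-05). The members that fell were IER3, from 2745 and 2962 to 529, 507 and 492 (−2.49), and PHLDA1 (−1.21), which respond to stress as well as to ERK. There were 10 and 11 higher members when each Matrigel library was left out.

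The stress and glycolysis lists held more lower than higher members. Of 24 tested p53 targets 11 fell and none rose, with a median of −0.24. CDKN1A, the cell cycle inhibitor p21, had 5735 and 5705 normalized counts on Matrigel and 3068, 3097 and 2876 on VNP2, a log2 fold change of −0.92 (SE 0.04, edgeR adjusted p = 2.17e-07), and GDF15, a secreted stress signal, had −1.18 (SE 0.16, edgeR adjusted p = 5.49e-04). In the unfolded protein and heat shock response 17 of 30 tested members fell and 1 rose. HSPA5, the chaperone BiP, fell to 0.827 of its Matrigel level, ATF4, a factor of the integrated stress response, to 0.83, and CHAC1, a target of that factor, to 0.402. Of 33 tested glycolysis and hypoxia genes 14 fell and 1 rose. PFKP, a phosphofructokinase, had 1362 and 1424 and 442, 443 and 383, a change of −1.72 (SE 0.11, edgeR adjusted p = 2.79e-06), while ENO1 and LDHA changed by −0.27 and −0.37. Without a Matrigel library these counts fell to 7 and 8 for p53 targets, 9 and 9 for the unfolded protein list, and 8 and 9 for glycolysis.

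Of 54 tested G2/M genes 16 were lower on VNP2 and none higher, with a median of −0.11, and of 49 S phase genes 5 were higher and none lower, with a median of 0.07. Of all tested genes 7.45% were higher and 16.6% were called. AURKA, a mitotic kinase, had 3164 and 3051 normalized counts on Matrigel and 2453, 2380 and 2408 on VNP2, a log2 fold change of −0.36 (SE 0.04, edgeR adjusted p = 1.25e-04). CDC20 and PLK1, which drive exit from and entry into mitosis, had −0.30 and −0.24. The replication genes POLA1 and MCM6 had 0.21 and 0.16, and both calls were lost without Matrigel replicate 3. Without Matrigel replicate 2 the counts were 7 lower G2/M and 2 higher S phase members, and without replicate 3 they were 8 and 0. Without VN replicate 1, 9 S phase members were higher. MKI67 and TOP2A, standard markers of cycling cells, were not called, with −0.02 and 0.02.

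**Figure D3:**
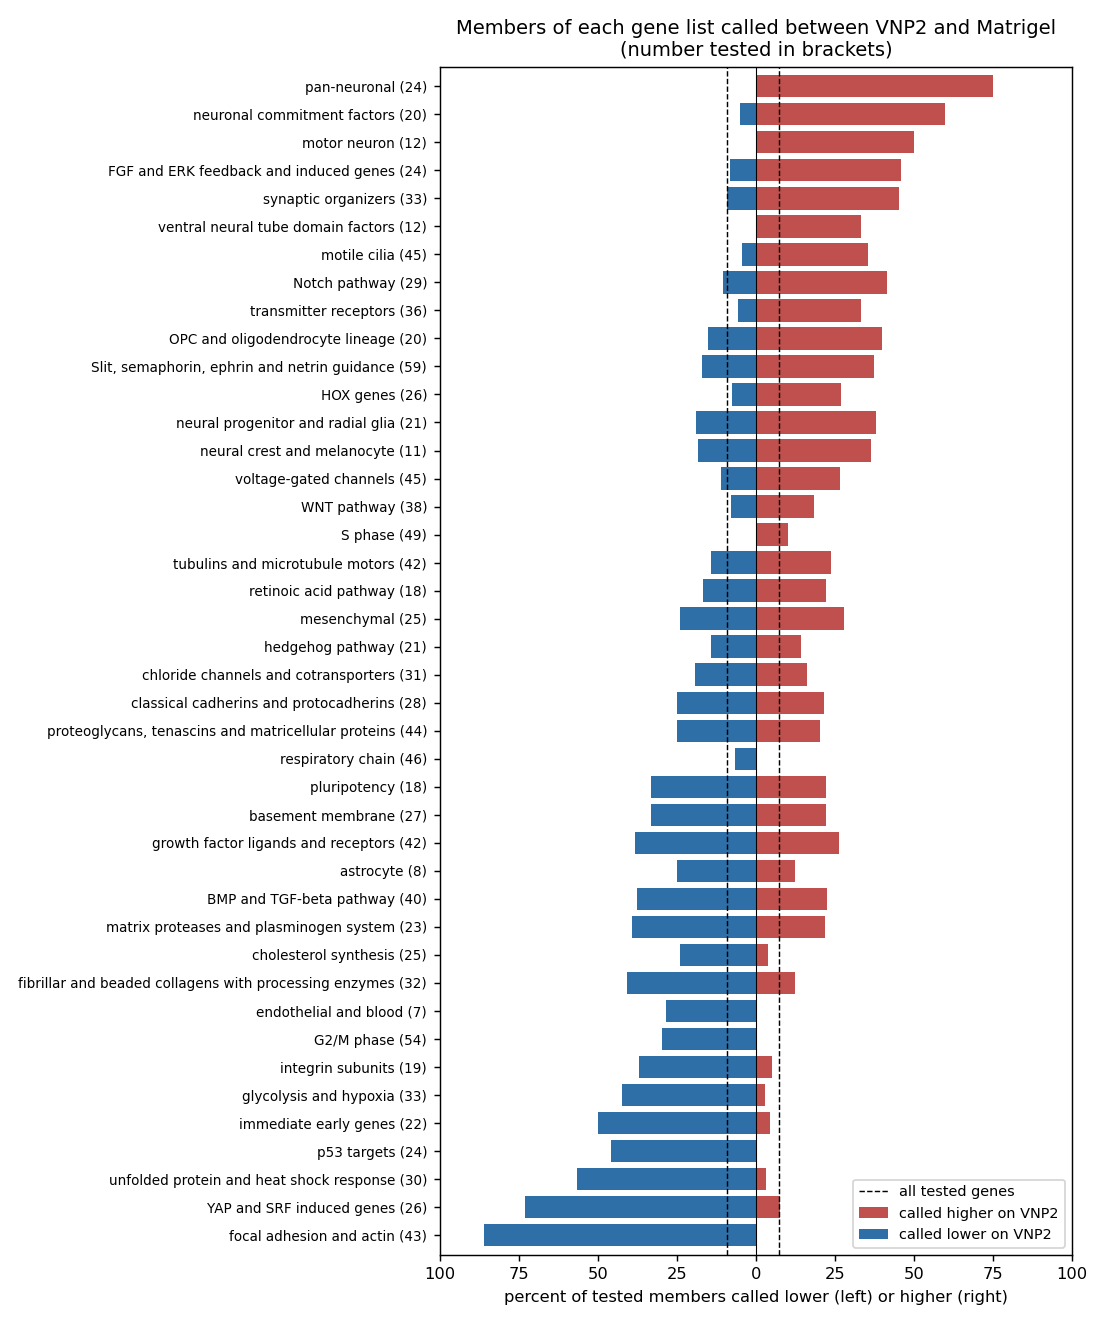
For each of 42 gene lists, the bars give the percent of tested members called lower (left) and higher (right) on VNP2, with the number tested in brackets. Dashed lines mark all tested genes, 9.13% lower and 7.45% higher. The focal adhesion list (37 of 43 lower) and the pan-neuronal list (18 of 24 higher) stand at opposite ends. The lists were chosen with earlier results of these data known, so their distance from the dashed lines is partly built in.

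In the list of OPC and oligodendrocyte genes 8 of 20 tested members rose and 3 fell, with a median of 0.18, and its summed level was 484 and 483 TPM in the Matrigel libraries and 584, 590 and 604 TPM in the VNP2 libraries. With either Matrigel library left out, 5 members were higher, and 1 was lower without replicate 2. OLIG1 (ENSG00000184221, chr21:33070144-33072420), a lineage factor, had 1514 and 1545 normalized counts on Matrigel and 1993, 1971 and 2121 on VNP2, a log2 fold change of 0.41 (SE 0.06, edgeR adjusted p = 8.29e-04). OLIG2, which specifies both motor neurons and OPCs, had 1771 and 1651 and 1917, 2085 and 2024, a change of 0.23 (SE 0.05, edgeR adjusted p = 0.0131). NKX2-2 had 618 and 584 and 738, 796 and 754, a change of 0.34 (SE 0.07, edgeR adjusted p = 0.00464). The differences were between 1.17-fold and 1.33-fold, and the calls of OLIG2 and NKX2-2 were lost without Matrigel replicate 3. The libraries did not overlap for these genes, which was also so for 48.1% of all tested genes.

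PDGFRA, the PDGF receptor on which OPCs depend, had 506 and 526 normalized counts on Matrigel and 645, 654 and 645 on VNP2, a change of 0.33 (SE 0.06, edgeR adjusted p = 0.00593). CSPG4, the proteoglycan NG2, had 120 and 149 and 214, 227 and 197, a change of 0.66 (SE 0.14, edgeR adjusted p = 0.00739). Both calls were lost without Matrigel replicate 2. Other surface and matrix proteins of the list, BCAN and PCDH15, had log2 fold changes of 0.11 and 0.32 and were not called, nor was the factor SOX8, with 0.25. These 3 were named after their values were seen. PTPRZ1, a phosphatase of progenitors, had a change of 0.65 (SE 0.05, edgeR adjusted p = 1.52e-05), but its level was only 0.784 of that in the deposited gene table, where it rose by 0.58. ST18, a zinc finger factor, had 366 and 313 and 656, 740 and 711, a change of 1.05 (SE 0.09, edgeR adjusted p = 2.46e-05). The members that fell belong to later steps or to their control: MBP, a protein of compact myelin, had 472 and 436 and 326, 405 and 296, a change of −0.41 (SE 0.12, edgeR adjusted p = 0.0437) whose call was lost in 6 alternative fits, ZNF488 had −0.80 (SE 0.08, edgeR adjusted p = 7.54e-05), and MYRF, the master regulator of myelin genes, had −0.67 and was named after its values were seen. TUBB4A, a tubulin of oligodendrocytes, rose by 0.29 on the log2 scale, a call lost in 6 alternative fits.

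Among the 42 lists, the pan-neuronal one had the largest share of higher members, a ranking partly built in by the choice of lists. Of 24 tested genes 18 were higher on VNP2 and none lower, with a median of 0.47, and the summed level was 1757 and 1800 TPM in the Matrigel libraries and 2178, 2170 and 2208 TPM in the VNP2 libraries. On VN against the same Matrigel libraries, 15 were higher and 1 lower, with a median of 0.26. DCX, a microtubule protein of young neurons, had 8430 and 8729 normalized counts on Matrigel and 13433, 14247 and 14745 on VNP2, a log2 fold change of 0.72 (SE 0.04, edgeR adjusted p = 2.41e-06). STMN2, a tubulin-binding protein of growing axons, had 4623 and 4950 and 7609, 8001 and 8112, a change of 0.72 (SE 0.04, edgeR adjusted p = 1.96e-06). NEFM, the medium neurofilament chain, had 6990 and 7096 and 11812, 11159 and 11190, a change of 0.69 (SE 0.04, edgeR adjusted p = 8.35e-07). INA and RTN1 changed by 0.43 and 0.61. The 5 rises were between 1.35-fold and 1.65-fold, yet TUBB3, MAP2 and GAP43, equally standard markers, had −0.01, 0.01 and −0.01 and were not called. The count was 16 and 14 when each Matrigel library was left out.

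Factors that commit progenitors to a neuronal fate rose too: 12 of 20 tested members were higher and 1 lower (none with either Matrigel library left out), with a median of 0.61. INSM1 and INSM2, zinc finger factors of newborn neurons, had 895 and 922 and 115 and 103 normalized counts on Matrigel and 1399, 1467 and 1369 and 268, 288 and 280 on VNP2, with log2 fold changes of 0.64 (SE 0.06, edgeR adjusted p = 3.81e-05) and 1.35 (SE 0.12, edgeR adjusted p = 2.47e-05). EBF2 and SCRT2 had 1.10 and 0.98. On VN against Matrigel, 11 members of this list were higher and none lower, with a median of 0.54. The proneural factors NEUROG1 and NEUROG2, which act upstream, were not called, with 0.09 and −0.40. In the motor neuron list 6 of 12 tested members rose and none fell, and on VN against Matrigel 3 rose and 1 fell. ISL1, a homeodomain factor of motor neurons, had 293 and 277 and 473, 468 and 480, a change of 0.73 (SE 0.08, edgeR adjusted p = 1.48e-04), and SLC18A3, the vesicular acetylcholine transporter, had 480 and 454 and 941, 861 and 883, a change of 0.94 (SE 0.08, edgeR adjusted p = 1.89e-05). The defining factors MNX1 and LHX3 were near 0, with 13 and 5 estimated counts in the whole series, and the summed level of the list was only 39.9 and 38.2 TPM in the Matrigel libraries and 64, 63.3 and 62.9 TPM in the VNP2 libraries. Without Matrigel replicates 2 and 3 the count of higher members was 3 and 4.

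**Figure D4:**
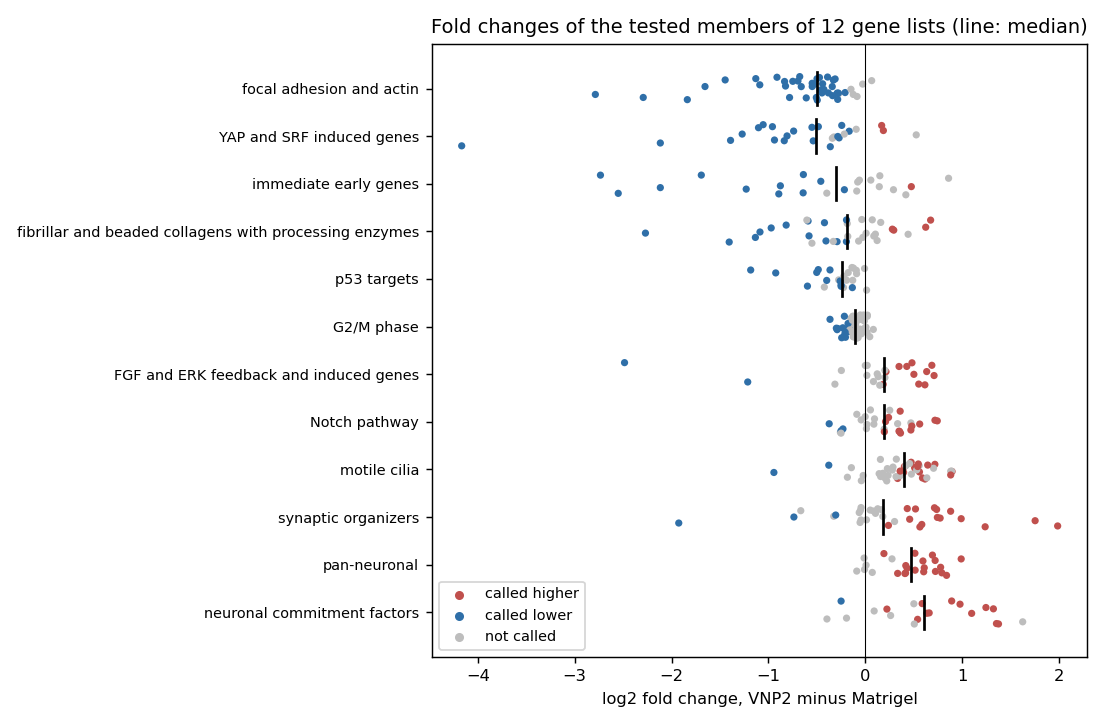
Log2 fold changes (VNP2 minus Matrigel) of the tested members of 12 gene lists, 1 point per gene, coloured by call, with the median of the list as a line. Medians run from −0.51 for YAP and SRF induced genes to 0.61 for neuronal commitment factors. ANKRD1, at −4.17, is the lowest point.

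Genes for axon guidance changed in both directions, with 22 of 59 tested members higher and 10 lower. SLIT1 (ENSG00000187122, chr10:96998038-97185920), a secreted repellent of axons, had 8806 and 8506 normalized counts on Matrigel and 17665, 17444 and 18374 on VNP2, a log2 fold change of 1.04 (SE 0.04, edgeR adjusted p = 1.77e-07). EPHA3, an ephrin receptor, had 999 and 1119 and 2356, 2357 and 2498, a change of 1.18 (SE 0.06, edgeR adjusted p = 5.69e-07). The rises were 2.06-fold and 2.27-fold. On the third substrate SLIT1 had 9483, 8914 and 8747 normalized counts, and EPHA3 had 1034, 1050 and 1043, both below every VNP2 library. Among the falls were those of NRP2, a semaphorin and VEGF co-receptor, with 8757 and 8605 on Matrigel and 2991, 2682 and 2724 on VNP2, a change of −1.63 (SE 0.05, edgeR adjusted p = 1.45e-08), of the ligand SEMA3C (−1.25) and of the receptor EPHA2 (−0.94). Without Matrigel replicate 2, 6 guidance members fell.

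Synaptic organizers, adhesion proteins that align both sides of a synapse, rose in 15 of 33 tested members and fell in 3. Beside the list counts of this paragraph stand the shares over all tested genes, 7.45% higher and 9.13% lower. LRRTM3 (ENSG00000198739, chr10:66926006-67099830), a postsynaptic ligand of neurexins, had 65.2 and 47.6 normalized counts on Matrigel and 242, 216 and 213 on VNP2, a log2 fold change of 1.99 (SE 0.16, edgeR adjusted p = 1.44e-05). SHISA6 (ENSG00000188803, chr17:11241263-11564063), an auxiliary protein of AMPA receptors, had 268 and 269 and 947, 905 and 865, a change of 1.75 (SE 0.08, edgeR adjusted p = 2.16e-07). Its relative SHISA9 went the other way, from 242 and 314 to 64.2, 80.5 and 74.3, a change of −1.93 (SE 0.16, edgeR adjusted p = 2.08e-05). SLITRK1 and SLITRK2 rose by 0.88 and 0.71 on the log2 scale. Of 36 tested transmitter receptors 12 rose and 2 fell. The kainate receptor subunit GRIK2 had 441 and 474 and 699, 689 and 748, a change of 0.64 (SE 0.08, edgeR adjusted p = 3.17e-04), and the nicotinic subunit CHRNB2 had 0.67, whereas the AMPA receptor subunit GRIA1 fell from 3193 and 3159 to 1798, 1890 and 1932, a change of −0.76 (SE 0.05, edgeR adjusted p = 2.64e-06). Among 45 voltage-gated channel genes 12 rose and 5 fell, with the potassium channels KCND2 at 1.57 and KCNH1 at −1.87. Without Matrigel replicate 2, 5 of the channel genes rose and 3 fell, and without replicate 3 again 3 fell. Of the transmitter receptors 1 fell without replicate 2.

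The rule for the largest rises gave genes of modest level. SLCO2A1, a prostaglandin transporter, had 216 and 248 normalized counts on Matrigel and 741, 771 and 774 on VNP2, a log2 fold change of 1.72 (SE 0.09, edgeR adjusted p = 9.83e-07). ADCYAP1R1, the receptor of the neuropeptide PACAP, had 425 and 367 and 1275, 1148 and 1151, a change of 1.59 (SE 0.09, edgeR adjusted p = 1.21e-06). EPAS1, the hypoxia-inducible factor HIF2A, had 84.7 and 83.3 and 258, 251 and 254, a change of 1.60 (SE 0.17, edgeR adjusted p = 1.04e-04). GRIP2, a scaffold of AMPA receptors, ASIC2, an acid-sensing channel, and SLC12A1, a sodium-potassium-chloride cotransporter, had 1.62, 1.48 and 1.78. CEACAM21, F5, RGS6 and HIC1 rose by between 1.26 and 1.51 on the log2 scale. CYP27C1 had the largest fitted value, 2.45 (SE 0.67, edgeR adjusted p = 0.0297), but it is uncertain: it was at 0 in Matrigel replicate 2, its level was 0.202 of that in the deposited gene table, where the change was 0.39, and its call was lost in 6 alternative fits.

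Motile cilia genes, which build the beating axoneme of ependymal cells and of the node, were higher in 16 of 45 tested members and lower in 2, with a median of 0.40. FOXJ1, their master regulator, had 2617 and 2603 normalized counts on Matrigel and 3960, 4081 and 4199 on VNP2, a log2 fold change of 0.64 (SE 0.04, edgeR adjusted p = 3.78e-06). The axonemal dynein heavy chains DNAH9 and DNAH7 had 0.59 (SE 0.06, edgeR adjusted p = 1.07e-04) and 0.90 (SE 0.14, edgeR adjusted p = 0.00125), and CFAP126 and SPAG6, proteins of the ciliary microtubules, had 0.88 and 0.47. The members called lower, named after their values were seen, were also axonemal dynein heavy chains, DNAH5 with −0.94 and DNAH14 with −0.38. The count fell to 7 without Matrigel replicate 2 and to 13 without replicate 3, and 1 and 0 members were lower. Among tubulins and microtubule motors in general, 10 of 42 rose and 6 fell, with TUBA1C at −1.13, TUBB6 at −0.71 and KIF26A at 0.36, and 4 rose when either Matrigel library was left out, while 2 fell without replicate 2 and 3 without replicate 3.

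In the Notch pathway, through which neighbouring progenitors hold each other back from differentiating, 12 of 29 tested members rose and 3 fell. The ligands DLL1 and DLL3 had 2751 and 2607 and 1860 and 1795 normalized counts on Matrigel and 3366, 3469 and 3433 and 3015, 3142 and 3021 on VNP2, with changes of 0.35 (SE 0.05, edgeR adjusted p = 6.75e-04) and 0.74 (SE 0.07, edgeR adjusted p = 4.11e-05). The target HEY1 rose with 0.56 and the receptor NOTCH2 fell with −0.37. Without Matrigel replicate 3, 1 member of the list fell. Sonic hedgehog genes went both ways, with 3 of 21 higher and 3 lower. The counts of all lists in this paragraph stand beside all tested genes, of which 7.45% were higher and 9.13% lower. The ligand SHH had 1822 and 1770 and 1103, 1242 and 1160, a change of −0.62 (SE 0.06, edgeR adjusted p = 4.15e-05), the effector GLI2 had −0.99 (SE 0.11, edgeR adjusted p = 1.85e-04), and the co-receptor BOC had 0.30. Of the ventral domain factors 4 of 12 rose and none fell, among them NKX6-1, with 0.50 (SE 0.09, edgeR adjusted p = 0.00429), a call lost without Matrigel replicate 3, when 1 member of the list rose. In the WNT pathway 7 of 38 rose and 3 fell, with APCDD1 at 0.73 and DKK2 at −1.33. In the retinoic acid pathway 4 of 18 rose and 3 fell, with the retinol transporter STRA6 at 0.74 and the retinoic acid-degrading CYP26A1 at −0.46, a call lost without Matrigel replicate 2. Genes of position along the body axis, mostly HOX genes, rose in 7 of 26 and fell in 2. HOXB5 and HOXB6 had 0.43 and 0.46. Without Matrigel replicate 3 the number of higher position genes was 2, and without replicate 2 there were 4 higher WNT members and 1 lower retinoic acid member. Without VN replicate 1 there were 5 lower WNT members. With either Matrigel library left out, 1 position gene was lower.

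Markers of other cell types that such cultures can hold were read as whole lists, beside shares of 7.45% higher and 9.13% lower over all tested genes. Mesenchymal genes split, 7 of 25 higher and 6 lower, with a median log2 fold change of 0.12, 16 of 25 above 0, and 4 higher members without Matrigel replicate 3. Their summed level was 1493 and 1514 TPM in the Matrigel libraries and 1093, 1072 and 1101 TPM in the VNP2 libraries. TAGLN went from 497 to 106 TPM and COL1A1 from 159 to 63.1 TPM. Among the higher members were the collagen VI chain COL6A3 and the proteoglycan decorin, DCN, with 0.62 and 0.34, both named after their values were seen. The lower members held TAGLN, ACTA2 and COL1A1, which are also in the contractile and collagen lists, so the part of mesenchymal cells in those falls was not tested. Astrocyte genes had 1 of 8 higher and 2 lower, with GFAP at 42 and AQP4 at 27 estimated counts in all, below the level needed for a test. Of their number GJA1, connexin 43, fell from 11374 and 11943 to 8090, 7761 and 7455 normalized counts (−0.59), and SLC4A4, a bicarbonate transporter, rose (0.84). Neural crest genes had 4 of 11 higher and 2 lower, with NGFR at 0.36 and ETS1 at −0.97, 2 were higher with either Matrigel library left out and 1 was lower without replicate 2, and FOXD3 had 28 estimated counts in all. Of 7 tested endothelial and blood genes 2 fell, CDH5 and TEK (−1.60 and −1.36), the former not without Matrigel replicate 2, and PECAM1 and PTPRC had 36 and 39 estimated counts. Radial glia genes had 8 of 21 higher and 4 lower. The structural members fell, with VIM from 2530 to 2251 TPM and NES from 458 to 381 TPM, while FABP7, a lipid carrier of radial glia, rose with 0.41. Without Matrigel replicates 2 and 3 in turn, 4 and 3 radial glia members were higher. Pluripotency genes had 4 of 18 higher and 6 lower, with LIN28A at −0.67 and LEFTY2 at −1.34 among the lower. DNMT3B, DPPA4 and USP44, named after their values were seen, were higher with 0.41, 0.18 and 0.23, and 2 members were higher without Matrigel replicate 2. The part of a shift between cell types in any of the changes was not tested.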

How the data were processed

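Poly(A) RNA of H9-derived OPCs was sequenced after 2 days on each substrate (8 libraries). The authors trimmed adapters with Trim Galore, quantified transcripts with Salmon on GENCODE v32 (GRCh38.p13), and deposited estimated counts and TPM values per transcript. A deposited gene table holds normalized counts (a signal) that the authors made with DESeq2 1.27.12. It has 23350 genes, of which 22837 were matched, and was used for 1 alternative and as a check of level.

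Estimated counts were summed per gene by transcript identifier with GENCODE v29 (205225 of 226608 transcripts, 98.8 to 98.9% of counts), rounded, and fitted with length offsets in edgeR 4.0.16 (R 4.3.3): filterByExpr (minimum count 10, minimum total 15), TMM, 1 quasi-likelihood fit of all 8 libraries, common dispersion 0.0037, two-sided tests, Benjamini-Hochberg adjustment over all 18201 genes. Calls were made at an adjusted p under 0.05. SE is the log2 fold change divided by the root of F. TPM was summed per gene. In simulated data of 18201 genes, 200 changes were planted in genes with a mean of at least 100 counts. All genes were given 1 dispersion. Of the planted changes, 98% of the 1.5-fold and 100% of the 2-fold ones were recovered, and 10 unchanged genes were called. Recovery under 100 counts, or with a spread that differs between genes, was not covered.

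Each library counted as 1 sample. Alternatives were DESeq2 1.42.0, no filter, a minimum of 50 counts, no length offsets, RLE normalization, a replicate block, only the 5 libraries, limma 3.58.1 on the log2 of the deposited table (pseudocount 1), and each library left out. The list members without a library, and the CArG box, were added after the data were seen.

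Members and the 42 lists were chosen with earlier results of these data known. Named genes were the 15 largest rises and falls among called genes with a symbol, a mean of at least 100 normalized counts and no overlap, the 12 with the largest TPM change, up to 5 per list, and the study's markers. Of these 234 genes, 232 lay within 20% of the deposited table. Others are said, or are members of a list given by its count, and were named after their values were seen. Some genes are not reported here. Scripts used Python 3.11.15, pandas 2.3.3 and matplotlib 3.10.9. The depth (37997896 to 39429453 estimated counts) gives 100 counts a sampling error of about 10%.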

Additional observations from a re-analysis of the deposited data

Results flagged for a closer look

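The direct contrast of VNP2 against VN (3 libraries each) shows whether the differences of the 2 substrates from Matrigel were unequal, because both are set against the same Matrigel libraries. In the edgeR fit of all 8 libraries, with the Benjamini-Hochberg adjustment over all 18201 genes, 942 genes passed it (5.18%). Among the genes named above these were the ones listed here, each with its log2 difference of VNP2 minus VN in brackets.

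Genes that rose on VNP2 against Matrigel and lay above VN as well were SLC12A1 (1.82), F5 (1.69), RGS6 (1.44), SHISA6 (1.35), CEACAM21 (1.28), EPHA3 (1.21), ASIC2 (1.17), ITGA8 (1.10), LAMA4 (1.04), SLIT1 (0.98), SLCO2A1 (0.93), ID1 (0.88), GRIP2 (0.87), EPAS1 (0.86), HIC1 (0.86), EBF2 (0.84), CFAP126 (0.83), BMP6 (0.81), SPAG6 (0.80), LRRTM3 (0.80), ADCYAP1R1 (0.71), SLC18A3 (0.68), SLC4A4 (0.67), SPRY1 (0.67), APCDD1 (0.66), ETV5 (0.61), LAMA2 (0.60), DNAH7 (0.59), NEFM (0.56), FOXJ1 (0.55), ID3 (0.54), DNAH9 (0.52), NGFR (0.49), FGFR2 (0.40), NKX6-1 (0.39), CHRNB2 (0.38), FABP7 (0.38), HOXB6 (0.38), GRIK2 (0.32), ID2 (0.32), SLITRK2 (0.30), NKX2-2 (0.26), STRA6 (0.26), PTPRZ1 (0.26), ETV1 (0.25), RTN1 (0.24), BOC (0.24), KIF26A (0.23), STMN2 (0.22), INA (0.21), DCX (0.20), COL3A1 (0.17), YAP1 (0.14) and MCM6 (0.13). SLIT1, EPHA3 and LAMA4 are in this group, and their VN libraries lay close to the Matrigel libraries.

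Genes that fell on VNP2 against Matrigel and lay below VN as well were UBD (−1.60), LEFTY2 (−0.99), CRHBP (−0.92), BMP4 (−0.88), COL1A1 (−0.87), ITGA4 (−0.83), CHAC1 (−0.80), ANXA3 (−0.78), MAMDC2 (−0.75), SEMA3C (−0.66), ADGRG6 (−0.64), DKK2 (−0.56), PFKP (−0.55), COL5A1 (−0.54), MBP (−0.52), NRP2 (−0.49), COL11A1 (−0.44), CCN1 (−0.43), THBS1 (−0.36), AJUBA (−0.35), TUBA1C (−0.34), IGFBP5 (−0.34), TPM1 (−0.33), AURKA (−0.32), ATF3 (−0.28), TNC (−0.25), GPC4 (−0.22), LDHA (−0.21), PLK1 (−0.20) and CDC20 (−0.19). For COL1A1 the VN libraries lay between the other groups.

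Genes that fell against Matrigel on VNP2 but lay above VN there were PLAU (0.79), PHLDA1 (0.47), ETS1 (0.41), CCN2 (0.36), CRIM1 (0.24), GJA1 (0.23) and VIM (0.22). DLL1 rose against Matrigel but lay below VN (−0.26). Genes not called against Matrigel that lay above VN were ITGB5 (0.34), JUN (0.33) and GAP43 (0.32), and those that lay below VN were ID4 (−0.28), MKI67 (−0.23), MAP2 (−0.17) and TOP2A (−0.16).

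No group here has 4 or more libraries, so no library was tested as an outlier within its group.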

How the results depend on the processing

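The 3017 genes called on VNP2 against Matrigel became 2899 to 3471 under DESeq2 (2916), no filter, a minimum of 50 counts, no length offsets, RLE normalization, only the 5 libraries or the deposited table. With the replicate block the count was 3155. Deviations from the group means correlated at −0.0506 for the libraries numbered 2 and 0.0342 for those numbered 3. With 2 Matrigel libraries their deviations are mirror images, so these values cannot show whether replicate numbers pair the samples. With the block the calls of CYP27C1 and MBP were lost.

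Leaving out 1 library moved the counts most. The number of called genes ranged from 1641 (without Matrigel replicate 3) to 3641 (without VN replicate 1), with 1649 without Matrigel replicate 2, the higher genes from 683 to 1616, and the lower genes from 927 to 2025. A fit with 1 Matrigel library assumes that it varies like the other groups. For VNP2 against VN, 942 genes became 548 (without VNP2 replicate 1 or 3) to 1960 (without VN replicate 1), with 579 and 582 without VN replicates 2 and 3. The cause was not tested. No named gene reversed its direction. Of the called named genes, 32 lost the call in at least 1 alternative, mostly without a Matrigel library. Genes under 100 normalized counts have a median SE of 0.36 on the log2 scale, so small changes there were not detectable.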

Other observations

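Among mitochondrially encoded transcripts, whose summed share of the counts showed no gap between the substrates, MT-CO2 had a log2 fold change of −0.20 (SE 0.03, edgeR adjusted p = 0.00269), while the calls of MT-CO1 and MT-ND4 were lost in 3 alternative fits each. Nuclear genes of the respiratory chain showed little, with 3 of 46 tested members lower and none higher, and no member was called when either Matrigel library was left out, while 11 were lower without VN replicate 1. Cholesterol synthesis genes had 6 of 25 lower and 1 higher: SC5D, a sterol desaturase, had −0.26 and LSS had −0.21, and the call of LSS was lost in 5 alternative fits. With either Matrigel library left out, 1 member of the list was lower. The shares over all tested genes were 7.45% higher and 9.13% lower.

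Chloride channels and cotransporters had 5 of 31 tested members higher and 6 lower, with 2 lower without Matrigel replicate 3. Over all tested genes, 7.45% were higher and 9.13% lower. TTYH1, a channel-like protein of neural progenitors, rose by 0.48 and SLC12A2, a chloride importer, by 0.35 on the log2 scale, while the potassium-chloride exporter SLC12A4 had −0.43. Cadherins and protocadherins had 6 of 28 higher and 7 lower (4 without Matrigel replicate 2), with CDH2, the N-cadherin of neural progenitors, at −0.33, CDH3 at −1.35 and PCDH9 at 0.73. Over the whole transcriptome, the genes called higher summed to 43090 TPM on Matrigel and 54849 on VNP2, and those called lower to 201453 and 171864.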
